A study of Mus musculus with 6 samples.

Results

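The 10 genes described here encode the enzymes that make serine and pass its carbon to folate: Phgdh, Psat1 and Psph of serine synthesis, and Shmt1, Shmt2, Mthfd1, Mthfd1l, Mthfd2, Mthfd2l and Aldh1l2 of folate-bound one-carbon metabolism. They were picked by name from the 55487 genes of the count table, with earlier PTHrP against DsRed results of the same table already known, so their number of differences is a description and supports nothing by itself. All 10 are in the table, and 9 had enough counts to be tested. RNA came from MIN6 cells, a mouse insulinoma line that stands in for beta cells, grown to confluency and transiently transfected with Lipofectamine 2000. The plasmid carried full-length parathyroid hormone-related protein (PTHrP) in 3 libraries and the red fluorescent protein vector DsRed in the other 3, and RNA was taken no later than 3 days after transfection. Both groups are of the one line and had the same transfection reagent. The promoter of the plasmids and the share of cells that took them up are not given in the sources used. In RNA from whole cultures, a small difference in all cells and a larger one in the transfected cells cannot be told apart.

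PHGDH draws phosphoglycerate out of glycolysis, PSAT1 adds an amino group from glutamate, and PSPH removes the phosphate to leave serine. The hydroxymethyltransferases SHMT1 in the cytosol and SHMT2 in mitochondria then move a carbon of serine onto tetrahydrofolate and leave glycine. In mitochondria that carbon is oxidised by MTHFD2 or its relative MTHFD2L and released as formate by MTHFD1L, or burned to carbon dioxide by ALDH1L2. The cytosolic enzyme MTHFD1 can take the formate back into folates for purine and thymidylate synthesis. Several of these genes are known targets of ATF4, the transcription factor of the integrated stress response, which acts downstream of stress in the endoplasmic reticulum.

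Levels are in CPM, counts scaled to TMM-corrected library size. Libraries held 84427033 to 94613684 gene counts. Pthlh, the gene for PTHrP, was counted 697, 553 and 797 times under PTHrP and 0, 4 and 8 times under DsRed, so the labels and the transfected gene go together. PTHrP replicate 2 stood apart from the rest: its genes deviated from their group mean by 0.138 log2 CPM on average, against 0.067 to 0.102 in the other libraries. Log2 fold changes of named genes that moved by over 1.5 times without it are given both ways. The 8 beta cell markers examined summed to 51000 to 57800 CPM under PTHrP and 52200 to 64100 CPM under DsRed. Markers of acinar, ductal, fibroblast, endothelial and blood cells summed to at most 4.96 CPM per cell type in any library. None of them was at 0 in every library. Other islet hormones summed to 135 to 175 CPM, nearly all of it glucagon (Gcg).

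Sequence before an annotated RefSeq start site is shown for the 3 genes whose PTHrP and DsRed libraries did not overlap (Shmt2, Mthfd2, Psat1) and, as a comparison, for Mthfd1l, whose groups did. The stretches were taken from RefSeq promoter windows on GRCm38.p6, which matched 9 of the 10 genes by symbol and not Aldh1l2. They run 5′ to 3′ on the gene's strand and hold only bases outside annotated exons within the 150 bases before a start site. The stretches of Mthfd2 and Psat1 lie inside the gene as GENCODE M21 annotates it, downstream of the start of a longer transcript. RefSeq has 2 windows for Psat1, of which the first listed is shown. The other (chr19:15924623-15924872) holds none of the motifs searched. Capitals mark CCAAT boxes on either strand (CCAAT or its reverse ATTGG) and, in Shmt2, the core CGCANGCG of the motif recognised by the transcription factor NRF1. The Shmt2 stretch is chr10:127522445-127522594 (minus strand), that of Mthfd2 is chr6:83317607-83317754 (minus strand), that of Psat1 is chr19:15925060-15925209 (minus strand) and that of Mthfd1l is chr10:3972925-3973074 (plus strand).
Shmt2: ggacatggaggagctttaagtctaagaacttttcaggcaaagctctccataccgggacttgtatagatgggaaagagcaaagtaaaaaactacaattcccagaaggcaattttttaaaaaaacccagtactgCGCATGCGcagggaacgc
Mthfd2: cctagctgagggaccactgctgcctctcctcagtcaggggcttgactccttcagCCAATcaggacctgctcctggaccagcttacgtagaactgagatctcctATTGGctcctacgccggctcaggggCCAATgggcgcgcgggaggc
Psat1: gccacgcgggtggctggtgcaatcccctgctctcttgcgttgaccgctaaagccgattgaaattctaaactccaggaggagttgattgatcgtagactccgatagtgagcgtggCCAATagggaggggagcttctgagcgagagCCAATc
Mthfd1l: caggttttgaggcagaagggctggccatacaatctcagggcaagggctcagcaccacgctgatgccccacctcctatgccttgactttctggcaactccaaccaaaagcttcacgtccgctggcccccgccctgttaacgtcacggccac

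The core of the C/EBP-ATF response element, TGATGNAA, was searched on both strands in the 250 bases before each start site. It was found for 0 of the 9 genes and for 3.91% of all 27025 genes with such a window. The other motifs were chosen after the sequences had been seen. CCAAT occurred in a window of 6 of the 9 genes (Phgdh, Psat1, Psph, Shmt1, Mthfd1 and Mthfd2) and of 37.5% of all genes. The Mthfd2 window holds 3 such boxes, starting 96, 47 and 22 bases before the start site. CGCANGCG occurred for Shmt2 alone of the 9, starting 18 bases before its start site, and for 7.65% of all genes. This form was shortened from longer forms of the NRF1 motif after the Shmt2 match had been seen, and the shorter form matches more genes, so the match is shown as a description only. The E-box CACGTG occurred for 0 of the 9 and 6.86% of all genes. No 2 of these motifs overlapped in the 9 genes. A match is a run of letters and not a measured binding site, and a motif absent from these windows may lie elsewhere in the gene.

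Scaled by exon length, the mitochondrial enzymes Shmt2 and Mthfd2 had the highest levels of the 10 genes. In PTHrP they had 114 ± 5.66 and 112 ± 3.51 CPM per kilobase (mean ± SD, n = 3), which did not differ beyond their spread. In DsRed the values were 83.9 ± 6.56 for Shmt2 and 92.7 ± 1.65 for Mthfd2. Psat1 followed with 80.1 ± 6.99 under PTHrP and 68.8 ± 2.52 under DsRed, then Mthfd1 with 47.8 ± 2.3 and 47.4 ± 2.56. Psph, Mthfd1l and Aldh1l2 had neighbouring levels, 22.2 ± 3.13, 20.5 ± 0.861 and 18.2 ± 4.25 CPM per kilobase in PTHrP, whose spreads overlap. Shmt1 lay below them at 14.4 ± 1.62, though within the spread of Aldh1l2. Phgdh was far lower, at 2.29 ± 0.367 CPM per kilobase under PTHrP and 2.03 ± 0.426 under DsRed, the 54.1 percentile of the genes tested, while Psat1, the next enzyme of the same route, was at the 97.1 percentile.

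The low Phgdh value carries a counting limit. Of the 50-base words in its annotated transcripts 47.8% also occur in transcripts of other genes, which include 19 processed pseudogenes. For the other 9 genes the share was between 0% and 13.6%. How the counting treated reads that match several places is not stated in the sources used here, so the level of Phgdh is uncertain. The 17 of these pseudogenes found in the table by symbol summed to 51 to 149 counts per library.

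**Figure D1:**
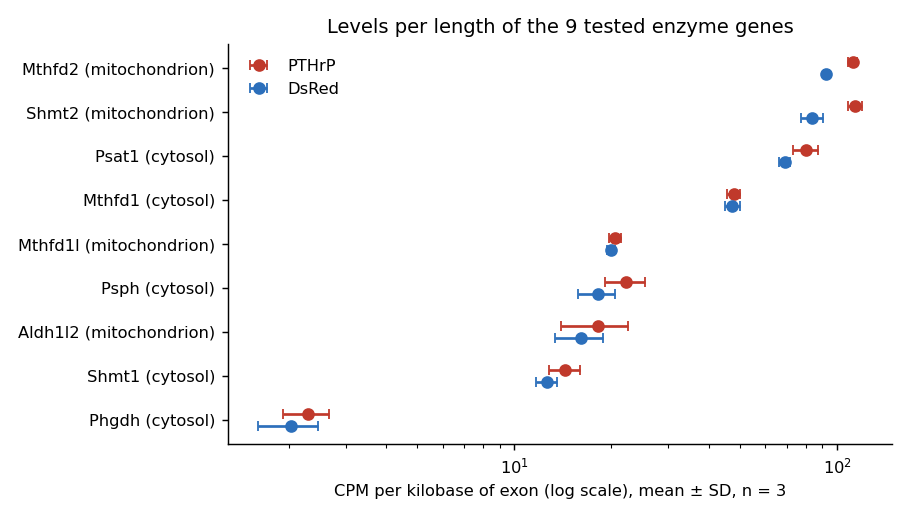
Levels of the 9 tested genes in CPM per kilobase of exon on a log axis, PTHrP in red and DsRed in blue, as mean ± SD over 3 libraries. Shmt2 and Mthfd2 sit at the top, Phgdh at 2.03 to 2.29 CPM per kilobase at the bottom, and Mthfd2l with 0 to 4 counts per library is left out.

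Between the groups, no gene of the 9 passed the threshold of 0.05 (edgeR quasi-likelihood test, adjusted over 21141 genes), while 0.0426% of all genes tested did. At an unadjusted p under 0.05 there were 4 of the 9, all higher in PTHrP (Shmt2, Mthfd2, Psat1 and Psph), where the share over all genes tested was 4.92% higher and 3.98% lower. DESeq2 called 2 of the 9, Shmt2 and Mthfd2, and 0.643% of all genes tested, and limma-voom called Shmt2 and 0.0851% of all genes tested. Without PTHrP replicate 2, edgeR called Shmt2 and Mthfd2 and 0.954% of all genes tested. All 9 log2 fold changes were positive, from 0.01 to 0.44 with a median of 0.2, while the median over all genes tested was -0.007 and 48.7% of them were positive. Without PTHrP replicate 2 the value of Aldh1l2 was no longer positive (-0.02). The 3 PTHrP libraries lay above all 3 DsRed libraries for Shmt2, Mthfd2 and Psat1, and 8.45% of all genes tested had that order. Since the genes were chosen with this contrast known, nothing is read from these shares.

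**Figure D2:**
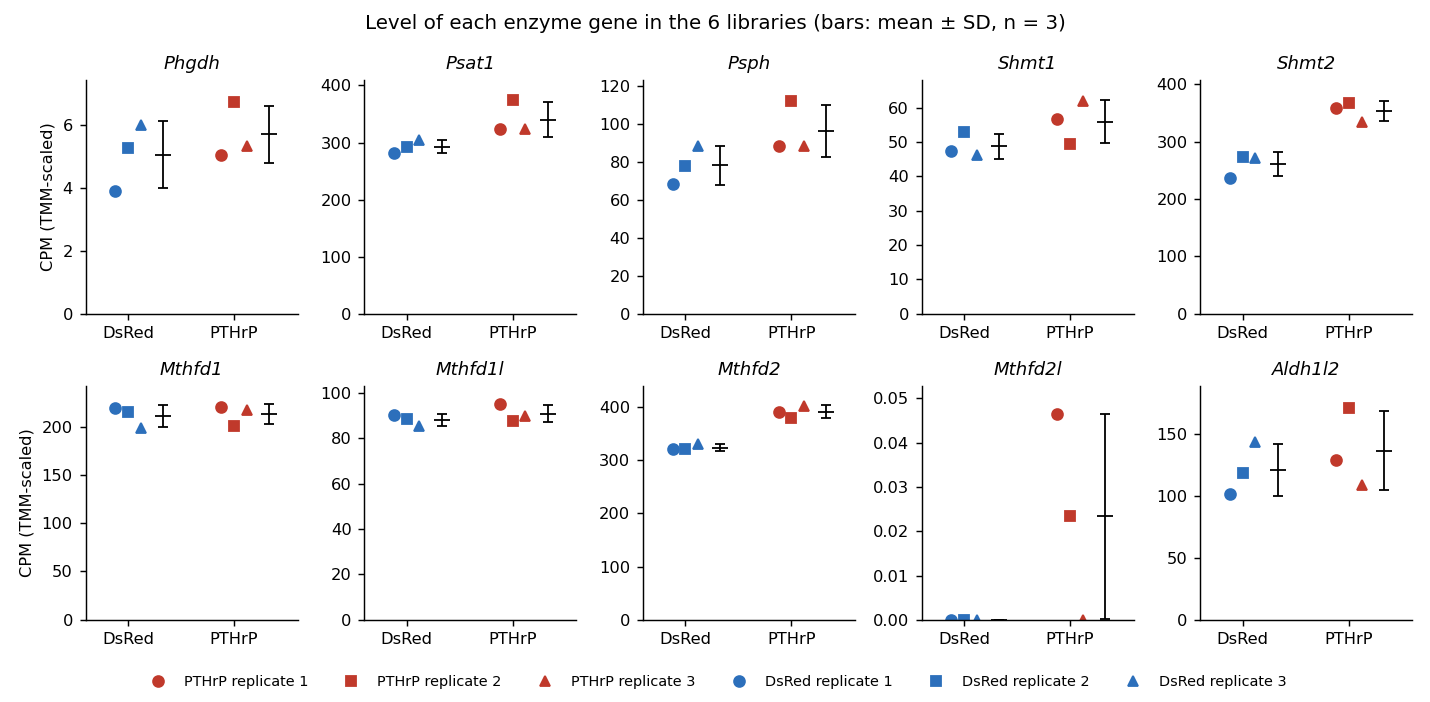
Level of each of the 10 genes in CPM in every library, with DsRed in blue, PTHrP in red, a symbol for each replicate number, and mean ± SD over 3 libraries beside them. The groups are apart for Shmt2 (334 to 368 against 237 to 273 CPM), Mthfd2 and Psat1. PTHrP replicate 2, the red square, is the highest library for Phgdh, Psat1, Psph, Shmt2 and Aldh1l2.

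Serine synthesis comes first in the route. Phgdh (ENSMUSG00000053398, chromosome 3, 98313170 to 98339990), the entry enzyme, had 5.03, 6.73 and 5.31 CPM under PTHrP and 3.89, 5.27 and 5.97 CPM under DsRed. The groups overlapped, and the log2 fold change was 0.17 (SE 0.18, adjusted p = 0.832). PTHrP replicate 2 was its highest library, and without it the value was 0.04. Leaving out DsRed replicate 1 gave 0.01 and leaving out DsRed replicate 3 gave 0.31. The 95% interval with all libraries ran from -0.22 to 0.57 and so leaves room for a difference in either direction.

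Psat1 (ENSMUSG00000024640, chromosome 19, 15904678 to 15947337), the aminotransferase, had 323, 375 and 323 CPM under PTHrP and 282, 292 and 304 CPM under DsRed. Every PTHrP library was above every DsRed library, with PTHrP replicate 2 well above the other two. The log2 fold change was 0.22 (SE 0.07, adjusted p = 0.37), and 0.15 without PTHrP replicate 2. Psph (ENSMUSG00000029446, chromosome 5, 129765558 to 129787449), the phosphatase of the last step, had 88.3, 112 and 88.5 CPM under PTHrP and 68.1, 78 and 88.6 CPM under DsRed. DsRed replicate 3 was level with the lower PTHrP libraries. The log2 fold change of Psph was 0.3 (SE 0.11, adjusted p = 0.487), against 0.18 without PTHrP replicate 2 and 0.4 without DsRed replicate 3. Exons of Psph share 452 bases, 10.4% of their length, with opposite-strand exons of Cct6a, a chaperonin subunit gene with 34600 to 37972 counts per library. Without strand, reads from there cannot be told apart. Cct6a itself had 416 CPM under PTHrP and 418 CPM under DsRed.

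Shmt2 had the smallest p of the 10 genes and ranked 12 among all genes tested. Shmt2 (ENSMUSG00000025403, chromosome 10, 127517123 to 127522444), the mitochondrial hydroxymethyltransferase, had 358, 368 and 334 CPM under PTHrP and 237, 273 and 272 CPM under DsRed. The lowest PTHrP library was above the highest DsRed library. The log2 fold change was 0.44 (SE 0.07, 95% interval 0.29 to 0.58, adjusted p = 0.0638), or 1.35-fold. Leaving out any 1 library kept it between 0.37 and 0.47, while the adjusted p ran from 0.00274 without PTHrP replicate 2 to 0.352 without DsRed replicate 2. Over 10 other settings the adjusted p of Shmt2 passed in 5. It ran from 5.42e-08 in edgeR with no filter on low counts to 0.153 with the replicate number as a block. The next smallest was 0.000141 with DESeq2.

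Shmt1 (ENSMUSG00000020534, chromosome 11, 60788104 to 60811718), the cytosolic form, had 56.7, 49.4 and 61.9 CPM under PTHrP and 47.3, 53 and 46.2 CPM under DsRed. PTHrP replicate 2 lay below DsRed replicate 2, so the groups overlapped. The log2 fold change was 0.2 (SE 0.09, adjusted p = 0.564), from 0.12 without PTHrP replicate 3 to 0.28 without PTHrP replicate 2. Opposite-strand exons of Smcr8 cover 184 bases of Shmt1, and those of Ndufa4l2 cover 32 bases of Shmt2.

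Mthfd2 had the tightest replicates of the 3 genes whose groups stood apart. Mthfd2 (ENSMUSG00000005667, chromosome 6, 83305691 to 83325908), the mitochondrial dehydrogenase and cyclohydrolase, had 391, 378 and 402 CPM under PTHrP and 320, 320 and 330 CPM under DsRed. The coefficient of variation was 3.13% and 1.78% within the groups, and the groups did not overlap. The log2 fold change was 0.27 (SE 0.05, 95% interval 0.16 to 0.38, adjusted p = 0.152). With 1 library left out it stayed between 0.25 and 0.3, and the adjusted p between 0.00424 without PTHrP replicate 2 and 0.82 without DsRed replicate 2. None of the 50-base words of Mthfd2 occurs in another annotated gene.

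Mthfd2l (ENSMUSG00000029376, chromosome 5, 90931117 to 91021368), the related enzyme of mitochondria, was close to undetected. It had 4, 2 and 0 counts under PTHrP and 0 in each DsRed library, where a count of 0 over the group allows up to 0.0113 CPM, in counting error only. At these counts it was not tested, and its transcripts share repeat sequence with many genes. Of the 2 paralogues only Mthfd2 was thus measured at a level that can be compared.

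Mthfd1l and Mthfd1 differed least between the groups. Mthfd1l (ENSMUSG00000040675, chromosome 10, 3973118 to 4167081), which releases formate in mitochondria, had 95, 87.5 and 90 CPM under PTHrP and 90.4, 88.7 and 85.3 CPM under DsRed. Its log2 fold change was 0.04 (SE 0.06, 95% interval -0.09 to 0.18, adjusted p = 0.887). Mthfd1 (ENSMUSG00000021048, chromosome 12, 76255298 to 76319803), the trifunctional cytosolic enzyme, had 220, 201 and 217 CPM under PTHrP and 219, 215 and 198 CPM under DsRed. Its log2 fold change was 0.01 (SE 0.06, 95% interval -0.12 to 0.15, adjusted p = 0.969). Without PTHrP replicate 2 the values were 0.07 for Mthfd1l and 0.05 for Mthfd1. The intervals of both, with all libraries, end below the 0.27 measured for Mthfd2. The Mthfd2 interval starts at 0.16, however, and so overlaps that of Mthfd1l, which ends at 0.18. The difference between genes was not tested.

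Aldh1l2 (ENSMUSG00000020256, chromosome 10, 83487450 to 83534140), which oxidises formyl-folate in mitochondria, had the widest spread of the 9 within PTHrP, with a coefficient of variation of 23.4%. In DsRed it had 17.2%, below the 21% of Phgdh. It had 129, 171 and 109 CPM under PTHrP and 101, 118 and 143 CPM under DsRed, with PTHrP replicate 2 and DsRed replicate 3 the highest of their groups. The log2 fold change was 0.17 (SE 0.2, 95% interval -0.31 to 0.66, adjusted p = 0.858), and -0.02 without PTHrP replicate 2. Exons of D10Wsu102e on the other strand cover 1056 bases of Aldh1l2, 14.1% of its exon length, and that gene had 41.5 CPM under PTHrP and 45.9 CPM under DsRed.

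**Figure D3:**
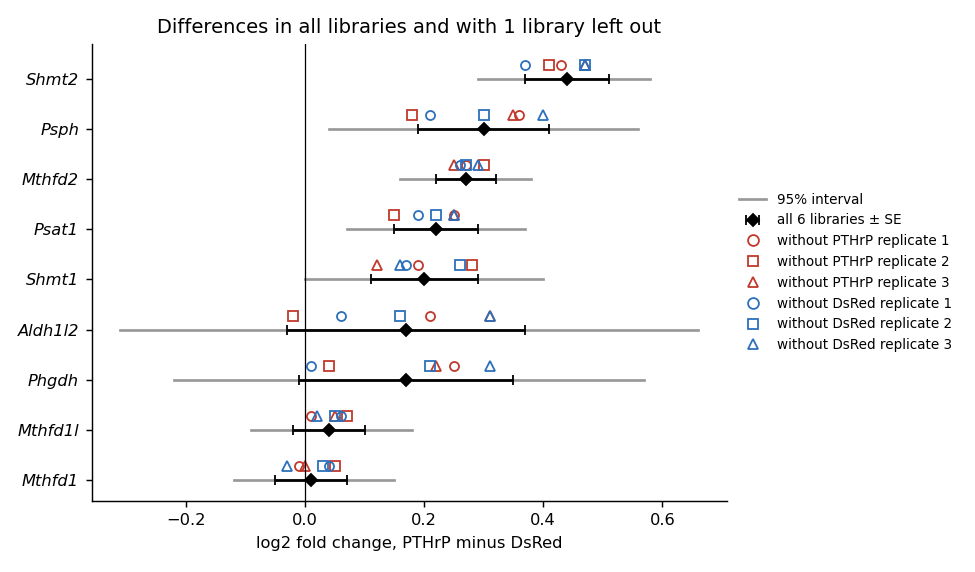
Log2 fold change (PTHrP minus DsRed) of the 9 tested genes with its SE in black and 95% interval in grey, and open symbols for the value with 1 library left out. Shmt2 stays between 0.37 and 0.47, whereas Aldh1l2 spans -0.02 to 0.31.

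Within a library, the ratio of a mitochondrial enzyme to its cytosolic counterpart does not depend on how libraries are scaled. The ratio of Mthfd2 to Mthfd1 in counts per exon base was 2.27, 2.4 and 2.37 under PTHrP and 1.86, 1.9 and 2.13 under DsRed. Every PTHrP library was above every DsRed library, with a mean log2 ratio of 1.23 ± 0.04 against 0.97 ± 0.1, a difference of 0.26, or 0.24 when PTHrP replicate 2 was left out. For Shmt2 to Shmt1 the ratio was 7.88, 9.32 and 6.74 under PTHrP and 6.26, 6.44 and 7.35 under DsRed, and the groups overlapped. Its mean log2 difference was 0.25, with 0.13 when PTHrP replicate 2 was left out and 0.36 when PTHrP replicate 3 was. Mthfd1l to Mthfd1 was 0.433, 0.437 and 0.416 under PTHrP and 0.413, 0.414 and 0.433 under DsRed, a log2 difference of 0.03 that is within the spread. These ratios were not tested, because the genes were chosen with their differences known.

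**Figure D4:**
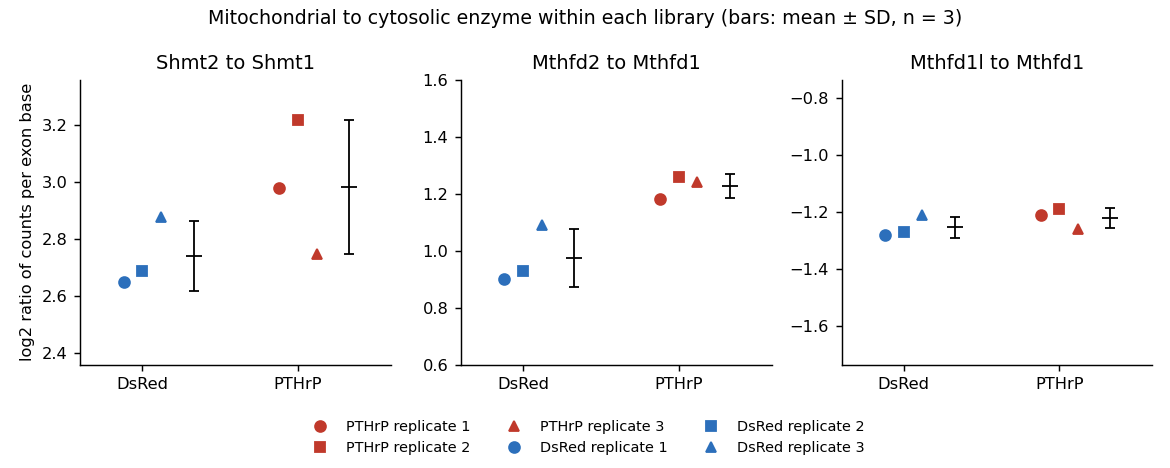
Log2 ratio of counts per exon base of a mitochondrial to a cytosolic enzyme in each library, with mean ± SD over 3 libraries; all panels span 1 log2 unit. Only the Mthfd2 to Mthfd1 panel has groups that do not overlap.

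The genes also differed among themselves in how they varied between libraries of one group. In DsRed, Phgdh, Psat1, Psph and Aldh1l2 each had their lowest value in replicate 1 and their highest in replicate 3, and in PTHrP each had its highest value in replicate 2. Shmt2 shared part of this order, with its lowest DsRed value in replicate 1 and its highest PTHrP value in replicate 2, while its DsRed replicates 2 and 3 were level. Mthfd1 and Mthfd1l had the other order, each with its lowest PTHrP value in replicate 2 and its lowest DsRed value in replicate 3. Deviations from group means were also correlated over all genes averaging at least 1 on the log2 CPM scale. There PTHrP replicate 2 correlated at 0.18 with DsRed replicate 3 and at -0.15 with DsRed replicate 1. PTHrP replicate 1 correlated at -0.23 with DsRed replicate 3, the largest in size, and at 0.17 with DsRed replicate 1. Deviations within a group cancel out, so these values depend on one another. How many of all genes share these orders was not counted. Atf4 had its highest value in PTHrP replicate 2, with 381, 461 and 400 CPM under PTHrP and 405, 401 and 391 CPM under DsRed. Within DsRed its order was the reverse of that of Phgdh, Psat1, Psph and Aldh1l2. The Atf4 peak was shared by Nfe2l2, Nrf1 and Oma1 of the stress list below, with 56.2, 69.5 and 6.97 CPM in PTHrP replicate 2. Atf5, Ddit3, Eif2ak3, Mycn and Dele1 of that list had their lowest value of all libraries there. Eif2ak4 was lowest there among the PTHrP libraries only, with 15.5, 14.7 and 17.5 CPM. For Atf4 the log2 fold change was 0.05 with all libraries and -0.03 without PTHrP replicate 2. The part of Atf4 in the pattern was not tested.

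**Figure D5:**
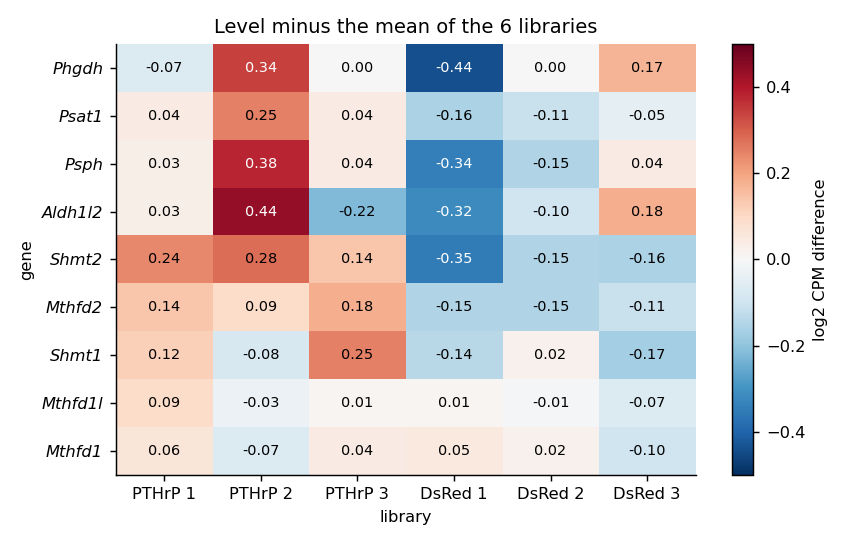
Log2 CPM of the 9 tested genes minus their mean over the 6 libraries, red above and blue below. Phgdh, Psat1, Psph, Shmt2 and Aldh1l2 peak at 0.25 to 0.44 in PTHrP replicate 2. Psat1, Shmt2 and Mthfd2 are positive in all PTHrP libraries and negative in all DsRed libraries.

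The genes whose levels followed Shmt2 most closely over the 6 libraries, of 11768 genes averaging at least 1 on the log2 CPM scale, were Gm2991 (Pearson r = 0.993), Rnaseh2a (0.990), Pias4 (0.990), Stard5 (0.990) and Porcn (0.988). Rnaseh2a encodes the catalytic subunit of ribonuclease H2, and had 54.5, 53.7 and 52.6 CPM under PTHrP and 44.8, 47.3 and 46.8 CPM under DsRed. None of these genes passed the threshold, with adjusted p from 0.366 to 0.456. The values of r are the highest of 11768, each over only 6 libraries that were scaled together. The difference between the groups was not removed before r was taken.

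Around the enzymes, 7 gene lists of neighbouring reactions held 78 tested genes, and none of those passed the threshold. With 1 library left out none of the 78 passed either, except Slc1a4 and Slc19a1 without PTHrP replicate 2, where 0.954% of all genes tested passed. Beside the counts of unadjusted p under 0.05 below, the share over all genes tested was 4.92% higher and 3.98% lower. The lists were chosen with earlier results known, so nothing is read from these counts. In serine transport and use, 1 of 14 had an unadjusted p under 0.05 and the median log2 fold change was 0.08. Ptdss2, which makes phosphatidylserine, had 0.18 (SE 0.08, adjusted p = 0.52), Sfxn1, the mitochondrial serine carrier, had 0.2 (SE 0.09, adjusted p = 0.576), and Slc1a4, a neutral amino acid transporter, had 0.23 (SE 0.11, adjusted p = 0.595). Without PTHrP replicate 2 the value of Slc1a4 was 0.37 (edgeR adjusted p = 0.00165). As for Psat1, PTHrP replicate 2 was the highest library for Sfxn1, with 157, 202 and 156 CPM under PTHrP and 143, 152 and 154 CPM under DsRed. Without that library the log2 fold change of Sfxn1 was 0.07. Glycine cleavage is another source of mitochondrial one-carbon units. In its list, which also held genes of threonine breakdown, 0 of 6 had an unadjusted p under 0.05. The median log2 fold change of this list was 0.07, or -0.01 without PTHrP replicate 2. Gldc, the decarboxylase of glycine cleavage, was barely expressed, at 0.923 ± 0.36 CPM under PTHrP and 0.587 ± 0.235 CPM under DsRed. Amt was at 0.876 and 0.77 CPM. Dld, shared with other dehydrogenase complexes, had 129 and 134 CPM.

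The median for folate uptake and interconversion was 0.02, and it changed sign with the settings, from -0.04 without DsRed replicate 3 and with a filter of 1 CPM in 3 libraries to 0.08 without PTHrP replicate 2. In this list 1 of 14 genes had an unadjusted p under 0.05. That gene was Slc19a1, the reduced folate carrier, with 53.5, 46.2 and 50.3 CPM under PTHrP and 40.3, 43.2 and 38.3 CPM under DsRed. Its groups did not overlap, and its log2 fold change was 0.3 (SE 0.08, adjusted p = 0.324). Without PTHrP replicate 2 the value of Slc19a1 was 0.36 (edgeR adjusted p = 0.0225). Mthfsd had 0.15 (adjusted p = 0.691) and Mthfs, which recycles formyl-folate, 0.29 at about 2 CPM (adjusted p = 0.764). In the methionine cycle the median was 0.01 over 10 genes, of which 1 had an unadjusted p under 0.05, and Ahcyl2 (-0.13, adjusted p = 0.535), Mat2a, the methionine adenosyltransferase gene (-0.1, adjusted p = 0.658) and Gnmt (0.85 at 0.6 CPM in PTHrP, adjusted p = 0.658) had the smallest p.

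Purine synthesis, which uses formyl-folate, had a median of -0.03 over 13 genes, and 3 had an unadjusted p under 0.05, 1 higher and 2 lower in PTHrP. Ppat, the committed step, had 256, 256 and 251 CPM under PTHrP and 293, 288 and 279 CPM under DsRed, without overlap and with all PTHrP libraries lower. Its log2 fold change was -0.17 (SE 0.05, adjusted p = 0.37), that of Gmps, which makes GMP, was -0.18 (SE 0.06, adjusted p = 0.37), and that of Adssl1 was 0.38 (SE 0.14, adjusted p = 0.463). In the glycolytic steps around phosphoglycerate all 8 genes had positive log2 fold changes with a median of 0.15, where 48.7% of all genes tested were positive. Of the 8, 2 had an unadjusted p under 0.05, each higher in PTHrP. Pgk1, phosphoglycerate kinase, had 453, 519 and 483 CPM under PTHrP and 417, 451 and 354 CPM under DsRed (log2 fold change 0.25, adjusted p = 0.414), Pgam1 had 0.15 (adjusted p = 0.561) and Bpgm 0.27 (adjusted p = 0.608).

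Stress regulators linked to these enzymes, mainly kinases and transcription factors, had a median of -0.01 over 13 genes, and 1 had an unadjusted p under 0.05. It was Eif2ak3, the stress sensor PERK, with 170, 156 and 165 CPM under PTHrP and 188, 191 and 185 CPM under DsRed (log2 fold change -0.2, SE 0.06, adjusted p = 0.348). Atf5, a relative of Atf4, had -0.29 (SE 0.13, adjusted p = 0.565), which was -0.13 without PTHrP replicate 2, and Eif2ak4, the amino acid sensor GCN2, had 0.18 (SE 0.11, adjusted p = 0.681). For Atf4 itself the value was 0.05 (adjusted p = 0.872), and for Ddit3 it was -0.02 (adjusted p = 0.952), or 0.02 without PTHrP replicate 2.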

How the data were processed

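The authors deposited raw counts per gene for 6 RNA-seq libraries of MIN6 cells. Per the submitters' processing notes, bcl2fastq, STAR and featureCounts 2.0.3 of Subread were used on build GRCm38; the annotation, strand setting and treatment of multi-mapping reads are not stated in the sources used here. Groups and replicate numbers come from the library titles. Nothing says that replicates were separate cultures, so p-values reflect the spread of these libraries alone, and it may be technical. The genes and lists were chosen with earlier results of these data known.

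The table's 55774 rows included 287 repeats of an identifier with identical counts, which were removed. No library pair agreed within sampling noise (chi-square per gene 9.26 to 73.3). Genes were filtered with filterByExpr (21141 kept), scaled by TMM and tested with edgeR 4.0.16 (robust quasi-likelihood F-test, group term alone, two-sided, Benjamini-Hochberg over all genes tested, threshold 0.05; R 4.3.3). The SE is the coefficient over the square root of F, and 95% intervals use it. Log2 CPM carries a prior count of 2. Exon lengths (merged exons) and positions are from GENCODE M21 on GRCm38. The code was tested on simulated counts. Alternatives were other scalings and filters, DESeq2 1.42.0, limma-voom 3.58.1 with and without quality weights, a replicate block, a length correction and each library left out. Named genes were the 10 enzymes, up to 3 genes per list with the smallest p, and the 5 genes most like the enzyme with the smallest p. Cct6a, D10Wsu102e, Atf4, Ddit3, Nfe2l2, Nrf1, Oma1, Mycn and Dele1 were named after their values were seen. A planned ratio of Mthfd2 to Mthfd2l was not computed, since Mthfd2l had 0 counts in 4 libraries.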

Additional observations from a re-analysis of the deposited data

How the results depend on the processing

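Genes tested were 21141, but 44413 with no filter on low counts, 13202 with a filter of 1 CPM in 3 libraries and 22258 to 22899 with 1 library left out. The count of all genes past the threshold was 9. It was 14 with library sizes alone, 220 with no filter on low counts, 136 with DESeq2, 18 with limma-voom, 254 with limma-voom and library quality weights and 14 with the gene length correction, and it ranged from 2 to 213 with 1 library left out (213 without PTHrP replicate 2). Of the 9 tested enzyme genes none passed; 1 did with library sizes alone and with limma-voom (Shmt2), 3 with no filter on low counts (Shmt2, Mthfd2 and Psph), and 2 with DESeq2 and with quality weights (Shmt2 and Mthfd2). With 1 library left out the range was 0 to 2, the 2 being Shmt2 and Mthfd2 without PTHrP replicate 2. The cause of these differences was not tested. Of 144 single-gene values under an alternative 4 changed sign: Mthfd1 was -0.01 without PTHrP replicate 1, 0 without PTHrP replicate 3 and -0.03 without DsRed replicate 3 (range -0.03 to 0.05 with 1 library left out), and Aldh1l2 was -0.02 without PTHrP replicate 2 (range -0.02 to 0.31). With the replicate number as a block 7 genes passed and none of the 9; the numbers share no stated source, and deviations of same-numbered libraries correlated at 0.17, -0.06 and -0.03, so they were not taken as pairs. The difference in log2 ratio ranged from 0.22 to 0.32 for Mthfd2 to Mthfd1, from 0.13 to 0.36 for Shmt2 to Shmt1 and from 0.02 to 0.05 for Mthfd1l to Mthfd1 with 1 library left out. The list medians ranged with 1 library left out from 0.06 to 0.1 for serine transport and use, -0.01 to 0.15 for glycine cleavage, -0.04 to 0.08 for folate, -0.02 to 0.02 for methionine, -0.05 to -0.01 for purines, -0.02 to 0.03 for stress genes and 0.1 to 0.2 for glycolysis. At these depths Mthfd2l, with 6 counts in all, could not be compared.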
